A study of Mus musculus with 10 samples.

Results

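The response of mouse peritoneal macrophages to lipopolysaccharide (LPS) was measured on 2 of the 10 arrays of the study, named PEC1 and PEC2. These spotted cDNA arrays use 2 colours: a pair of RNA samples compete for each spot, and the result is a ratio. Channel 1 held total RNA of untreated adherent peritoneal exudate cells (PEC), and channel 2 held total RNA of such cells after 4 hours with LPS at 100 ng/mL. The mice were of the strain labelled C57/6N black and were 8 weeks old. The other 8 arrays compared tumour-associated macrophages (TAM), taken 3 weeks after a tumour was implanted, with PEC or with TAM under LPS: 4 held untreated TAM and untreated PEC, 2 held LPS-treated TAM and LPS-treated PEC, and 2, called TAM-trial and TAM-16, held LPS-treated and untreated TAM. Where the labels of those 8 arrays speak of a tumour, their PEC are described as harvested at that time too, while the labels of PEC1 and PEC2 name no tumour. Of 9596 features, 7486 carried 1 gene symbol, and averaging features of 1 gene left 6795 named genes. These genes are the members described here. Across the 576 genes with 2 features, the features of a gene correlated at r = -0.005 on PEC1 and 0.047 on PEC2, so the value of such a gene is a mean of readings that did not follow each other.

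LPS is a component of the outer membrane of Gram-negative bacteria. Macrophages sense it through Toll-like receptor 4, whose adaptor MyD88 leads to NF-kB and the MAP kinases and to cytokines, while the adaptor TRIF (Ticam1) leads to IRF3, interferon beta and then the interferon-stimulated genes. Within hours, NF-kB also induces its own inhibitors, so a 4 hour sample holds inflammatory, interferon and feedback genes together.

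The deposited value of a feature is a log2 ratio, read as LPS over untreated cells, so that 1 stands for 2-fold higher with LPS. The dyes are not named in the labels, and this direction is likely rather than certain: it was chosen because NF-kB and interferon genes lie above 0 when read so. The upward direction of those genes is therefore no result. Both arrays had the same channel order, so these 2 arrays alone cannot tell a dye effect of a gene from its response. With a dye term, which the exchanged arrays of other comparisons allow, limma called 1 gene, as without it, and 0 in the loop fit described further on. Nothing states that the arrays came from separate cultures or animals, so p-values measure a spread that may be technical. With 2 arrays, an exact sign-flip test of one gene cannot give a p below 0.5.

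The 2 arrays agreed only in part. PEC1 was on array print v1p1 and PEC2 on v3p6, so print and array cannot be told apart. Across the 6795 named genes, which are not independent replicates, their values correlated at r = 0.28 and rho = 0.372. Over each whole array, and not the named genes alone, the medians were 0.011 and -0.042. Both values were above 0 for 2165 genes (31.9%), both below 0 for 2124 (31.3%) and of opposite sign for 2500 (36.8%). Past 2-fold the arrays were lopsided: 381 genes (5.61%) were above 1 on both and 33 (0.486%) below -1 on both. With each array brought to 1 scale these counts were 594 and 60. In bulk samples, fewer cells of a type and less RNA per cell cannot be told apart.

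Many of the largest ratios were exact whole-number multiples of 1 value. On PEC1 the commonest log2 ratio was 0.954, shared by 69 features, where the next commonest value had 14. On PEC2 it was 0.847, shared by 80 features against 17. Of the 40 features on PEC1 that were 17 to 128 times this commonest ratio, 40 were at a whole multiple within the rounding of the deposited values, where 2.457 would be expected if ratios fell evenly between whole numbers. On PEC2 they were 36 of 41, against 1.755 expected. Below the commonest ratio, by the same factors, they were 24 of 39 (2.675 expected) on PEC1 and 55 of 92 (7.034 expected) on PEC2. At 2 to 4 times below, 31 of 6000 and 38 of 5909 features were whole, against 20.638 and 19.135 expected. At 2 to 4 times above, they were 9 of 620 and 12 of 343, against 1.81 and 0.971 expected. A small multiple below the commonest ratio therefore means less than a large one. By arithmetic, a spot gives a whole multiple when its weaker channel reads a single unit of signal. Channel signals were not used here, and this was not tested.

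**Figure D1:**
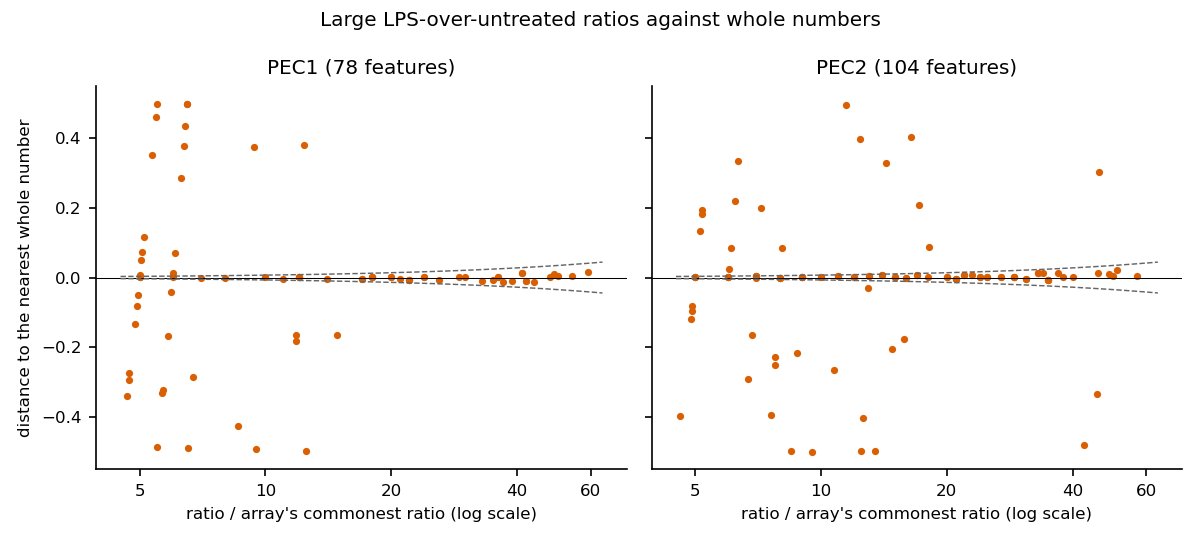
Distance to the nearest whole number (vertical axis) of each feature's ratio divided by the commonest ratio of its array (horizontal axis, log scale), for ratios 5 to 64 times the commonest on PEC1 and PEC2. Dashed lines are the rounding error of the deposited values, and most points beyond 16 times lie between them: 40 of 40 on PEC1 and 36 of 41 on PEC2 up to 128 times.

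These multiples filled the extremes of both lists of genes. A named gene was at a whole multiple on either array in 314 of 6795 cases (4.62%) and on both in 71 (1.04%). Among the 26 genes above 3 on both arrays, 16 were at a whole multiple on either and 8 on both. The 5 genes below -3 on both arrays were all at whole multiples on both. With these values left out, 341 of 6529 genes (5.22%) were above 1 on both arrays and 20 (0.306%) below -1 on both. The correlation between the arrays was then r = 0.277. In the rest of the text, the multiple is given wherever a gene named has one above 1.

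**Figure D2:**
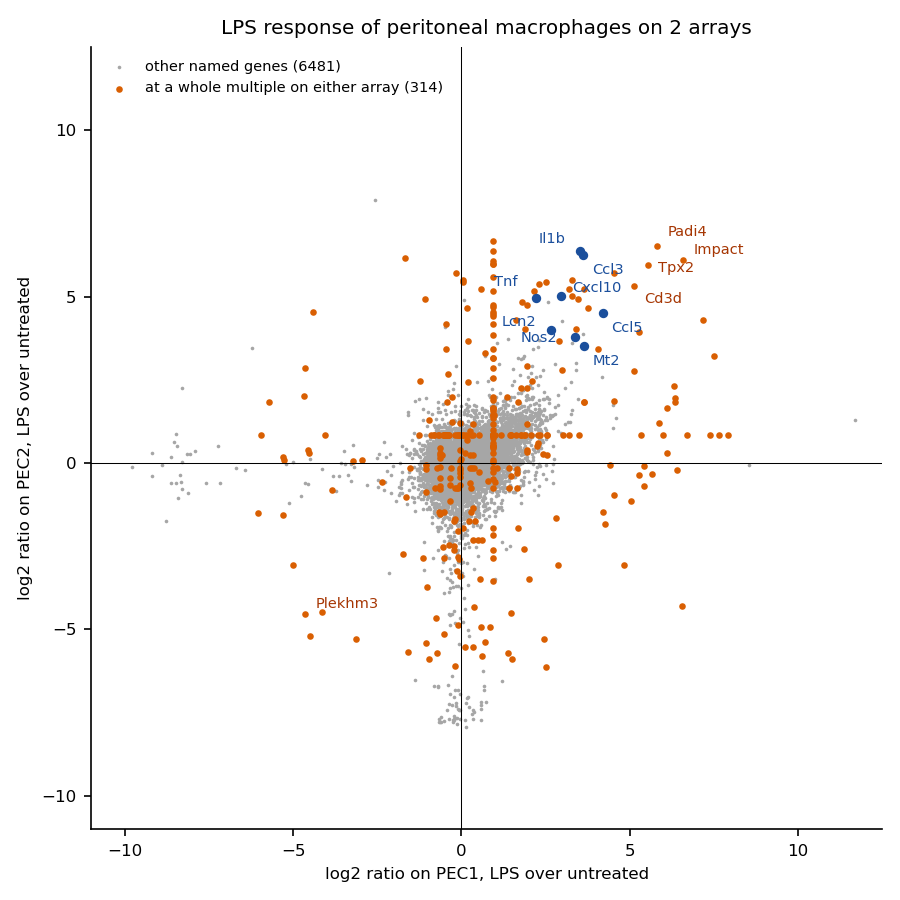
Log2 ratio of LPS over untreated cells on PEC1 (horizontal) and PEC2 (vertical) for each of 6795 named genes. Orange points, 314 genes at a whole multiple of the commonest ratio on either array, form the cross at 0.954 and 0.847 and most of the outermost points. Blue points are inflammatory and metallothionein genes named in the text, which lie high on both arrays and at no whole multiple.

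The test across all genes called a single gene, and that gene was one of the whole multiples. It was fitted with limma over all 10 arrays, and a gene was called at an adjusted p under 0.05 (Benjamini-Hochberg, over 8905 genes and unnamed features). It called 1 gene higher with LPS (0.0112%) and 0 lower, and 725 (8.14%) had an unadjusted p under 0.05. Tpx2, which activates the Aurora A kinase and helps assemble the mitotic spindle, was at 5.54 on PEC1 and 5.94 on PEC2, 24 and 34 times the commonest ratio. Its mean was 5.74 ± 0.28 (SD, n = 2, limma adjusted p = 0.0035). With whole multiples left out it had no value and the count was 0. The genes Tpx2 works with were not set apart from named genes as a whole. Of 17 measured spindle assembly partners, 1 was above 1 on both arrays, where 5.61% of all named genes were. It was Ran, the GTPase that releases Tpx2 from importins (2.05 and 1.12). The list had medians of -0.08 and 0.10. Kif11, the motor that Tpx2 binds, was at -0.91 and 0.24, and Numa1, the spindle pole protein, at -0.77 and 0.50. Of 70 cell cycle and replication genes, with medians of -0.08 and -0.10, 5 were above 1 on both arrays (7.14%, against 5.61% of all genes). Aside from Tpx2 and Ran these were Cdkn1a, the p21 inhibitor of cyclin-dependent kinases (1.75 and 2.65), Ccnd2, a D-type cyclin (1.28 and 1.94), and Rrm2, a subunit of ribonucleotide reductase (1.31 and 1.86).

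Ranked by the value nearer to 0 of the 2 arrays, the 15 highest genes included 9 at whole multiples on either array, Tpx2 among them. Impact, a regulator of translation under stress, was highest at 6.60 and 6.10 (50 and 38 times). Padi4, a neutrophil enzyme that citrullinates histones, was at 5.81 and 6.52 (29 and 51 times). Cd3d, a chain of the T cell receptor complex, was at 5.12 and 5.31 (18 and 22 times). Cops2, a subunit of the COP9 signalosome, was at 4.54 and 5.70 (12 and 29 times), and Jtb at 7.18 and 4.31 (75 and 11 times). H2-DMa, which loads peptide onto MHC class II, was at 3.76 and 4.66 (7 and 14 times). Foxn1, the transcription factor of the thymic epithelium, was at 5.28 (20 times) and 3.94, and Mapk8ip3, a scaffold of the JNK kinases, at 3.64 and 5.24 (21 times).

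The other 6 of the 15 highest were at no whole multiple. They were Ccl5, Ccl3, Ccl4, Il1b, Timp1 and Mt2. Ccl5, a chemokine for T cells and monocytes, was at 4.2 on PEC1 and 4.5 on PEC2. Its mean, 4.35 ± 0.21 (SD, n = 2), was 20.4-fold higher with LPS, and limma's adjusted p was 0.135. Timp1, an inhibitor of metalloproteinases, was at 3.61 and 3.86. Mt2, a metallothionein that binds zinc and copper, was at 3.66 and 3.51. For these 3 genes the arrays differed by less than 0.5, and for the other 3 PEC2 was the higher array by over 2. With whole multiples set aside, the genes next in rank were Nos2, Marcksl1, Mt1, the uncharacterised 2510002D24Rik, Sdc4, Cxcl10, AA467197, Alas2 and Lcn2, named here after their values were seen.

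**Figure D3:**
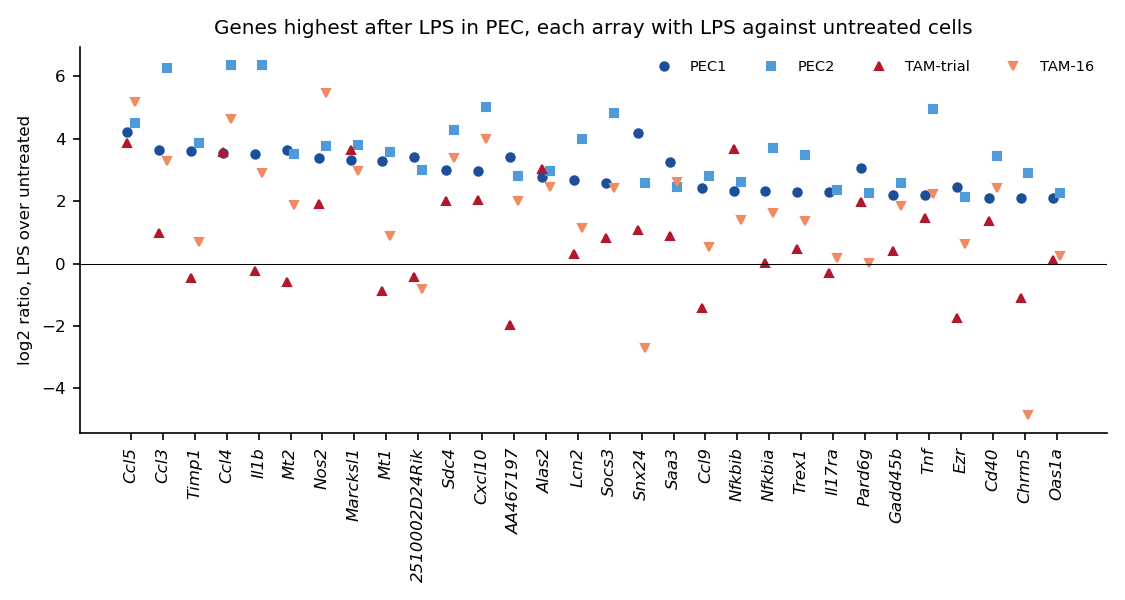
Log2 ratio of LPS over untreated cells for the 30 highest genes at no whole multiple, in rank order, on PEC1 and PEC2 (blue) and on TAM-trial and TAM-16 (red). The genes were ranked on the blue points. Of the 30, 10 are above 1 on all 4 arrays and 2 below 0 on both TAM arrays.

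The promoters of these 15 highest genes at no whole multiple were read from RefSeq (build GRCm38.p6), as the 250 bases before the start of the gene. Matching by gene identifier found 12, and the others were Ccl5, Ccl4 and Nos2. Searched on both strands were a form of the NF-kB site (GGG and TTCC parted by any 3 bases), the core of the interferon-stimulated response element (ISRE; GAAA and GAAA parted by any 2 bases), and TGCNCNC, a form of the metal response element bound by MTF1. Sdc4 and Cxcl10 held the NF-kB letters, and Cxcl10 the ISRE letters as well. These 2 and Mt2 are shown because they carry the inflammatory, interferon and metal motifs. Capitals mark NF-kB and ISRE matches in Cxcl10 (chr5:92348890-92349139, minus strand) and Sdc4 (chr2:164443189-164443438, minus strand), and metal response matches in Mt2 (chr8:94172368-94172617, plus strand).

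Cxcl10: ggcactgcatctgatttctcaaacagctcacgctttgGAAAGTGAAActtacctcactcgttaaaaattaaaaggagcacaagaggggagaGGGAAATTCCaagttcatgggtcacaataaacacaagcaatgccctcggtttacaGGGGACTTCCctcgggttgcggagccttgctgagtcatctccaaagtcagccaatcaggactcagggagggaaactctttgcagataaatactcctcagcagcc
Sdc4: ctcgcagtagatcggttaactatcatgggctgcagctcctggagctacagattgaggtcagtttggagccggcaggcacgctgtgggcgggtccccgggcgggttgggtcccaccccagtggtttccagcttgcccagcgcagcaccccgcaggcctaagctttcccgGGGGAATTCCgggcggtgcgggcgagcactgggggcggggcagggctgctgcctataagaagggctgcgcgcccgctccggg
Mt2: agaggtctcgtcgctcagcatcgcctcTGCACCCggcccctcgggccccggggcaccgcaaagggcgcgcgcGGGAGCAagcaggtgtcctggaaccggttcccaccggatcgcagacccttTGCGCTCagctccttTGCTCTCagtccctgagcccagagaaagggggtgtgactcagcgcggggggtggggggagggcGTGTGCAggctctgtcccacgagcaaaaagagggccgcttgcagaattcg

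In Cxcl10 the ISRE match GAAAGTGAAA began 213 bases before the start and the NF-kB matches GGGAAATTCC and GGGGACTTCC began 159 and 104 bases before it. In Sdc4 the match GGGGAATTCC began 82 bases before the start. Of the 12 promoters, 7 (58.3%) held the metal motif: Mt2 had 5 matches, Sdc4 2, and Mt1, Timp1, Marcksl1, Cxcl10 and AA467197 1 each. Among the 274 genes above 1 on both arrays with a promoter and without whole multiples, 22 (8.03%) held the NF-kB letters and 21 (7.66%) the ISRE letters. The shares were 6.32% and 3.17% of the 5365 named genes with a promoter, and 4.65% and 2.98% of all 32851 promoters. The metal motif is short and was in 138 of the 274 (50.4%), 57.6% of named genes and 44.4% of all promoters. A match is a description of letters and not of binding.

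Cytokines lay above 1 on both arrays more often than named genes as a whole. Their upward side, and that of the other NF-kB and interferon genes below, follows from the direction chosen and is no result. Of 14 measured cytokines, 7 were above 1 on both arrays (50%, against 5.61% of all named genes), and the median was 1.15 on PEC1 and 1.20 on PEC2, against 0.05 and -0.03 for all. Il1b, the proinflammatory interleukin-1 beta, was at 3.53 and 6.36. Tnf, the tumour necrosis factor that drives fever and endothelial activation, was at 2.21 and 4.95. Both stood more than 2 higher on PEC2, and their means were 4.94 ± 2.0 and 3.58 ± 1.94 (SD, n = 2; limma adjusted p = 0.302 and 0.173). The growth factors Csf2 (1.96 and 1.29) and Csf3 (1.73 and 1.36), which drive granulocytes and macrophages, lay lower and closer together. Tgfb1, an anti-inflammatory cytokine, was at 1.72 and 1.65, Mif at 1.87 and 1.23, and Tnfsf9, the ligand of 4-1BB, at 1.58 and 1.06. Il12b, the shared subunit of interleukins 12 and 23, was at -1.17 and 0.07. Il18, whose release needs the inflammasome, was at 0.71 and -1.30, and Il27 at -0.33 and 1.17. No cytokine was below 0 on both arrays. Il6, Il10, Il1a and Ifnb1 had no feature with a single symbol among those used here.

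The chemokines were split between a few very high genes and many near 0. Of 25 measured, 7 were above 1 on both arrays (28%, against 5.61% of all named genes), and the medians were 0.96 and 0.32. Ccl3 and Ccl4, which draw in monocytes and T cells, were at 3.63 and 6.26 and at 3.54 and 6.38. Cxcl10, the interferon-induced ligand of CXCR3, was at 2.97 and 5.02, while Cxcl9, another CXCR3 ligand, was at -0.21 and 0.20. Ccl9 was at 2.43 and 2.80. The monocyte attractant Ccl2 was at 1.05 and 3.62, and its relatives Ccl7 and Ccl12 at 1.48 and 0.71 and at -0.67 and 0.01. Ccl20, a ligand of CCR6, was at 1.32 and 1.79. Ccl17, a ligand of CCR4, was at -0.87 and -0.52, and Ccl22, which shares that receptor, at 0.98 and 1.55. The high value of Cxcl15 on PEC2, 6.68, was 57 times the commonest ratio, and its PEC1 value was the commonest ratio itself.

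Receptors for these mediators came next. Of 18 receptors, 6 were above 1 on both arrays (33.3%, against 5.61% of all named genes), with medians of 0.49 and 0.42. They were both TNF receptors, Tnfrsf1a (1.63 and 1.04) and Tnfrsf1b (1.53 and 2.84), both chains of the type I interferon receptor, Ifnar1 (1.58 and 1.33) and Ifnar2 (1.82 and 1.04), the interleukin-17 receptor Il17ra (2.28 and 2.36), and Ccr7, which guides cells to lymph nodes (1.68 and 1.47). Ccr2, the receptor for Ccl2, was at -0.72 and -1.23. Cx3cr1, the fractalkine receptor, was at -0.05 and -0.04.

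In the pathway from the receptor to the nucleus, a minority of genes lay above 1 on both arrays. Of 25 genes of Toll-like receptor, adaptor and kinase signalling, 4 did so (16%, against 5.61% of all named genes). The medians were 0.53 and 0.77. The 4 were the adaptor Myd88 (2.21 and 1.79), the lipoprotein receptor Tlr2 (1.56 and 1.19), Traf1, an adaptor of TNF receptors (1.82 and 2.19), and the kinase Syk (1.19 and 1.34). The interferon-branch adaptor Ticam1 was at 0.95 and 0.85, which are the commonest ratios of the arrays. Mapkapk2, a kinase downstream of p38, was at -5.29 (76 times below) and -1.57. Of 21 NF-kB, AP-1 and other inducible factors, 2 were above 1 on both arrays, against 5.61% of all named genes. They were Rela, the p65 subunit of NF-kB (1.25 and 1.48), and Junb, an AP-1 subunit (2.10 and 1.98). The immediate early genes Fos (0.64 and -0.26) and Myc (-0.10 and -0.05) lay near 0 at 4 hours.

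Inhibitors of the same pathways were also represented. Of 25 measured feedback inhibitors, 8 were above 1 on both arrays (32%, against 5.61% of all named genes), with medians of 1.11 and 0.39. Nfkbia, the inhibitor IkB-alpha that returns NF-kB to the cytoplasm, was at 2.31 and 3.70, and Nfkbib, IkB-beta, at 2.33 and 2.62. Tnip1, a partner of the deubiquitinase A20, was at 1.98 and 2.60. Socs3, which blocks signalling of the interleukin-6 family, was at 2.59 and 4.83, and Socs1, which blocks interferon signalling, at 1.24 and 1.33. Bcl3, an IkB family member in the nucleus, was at 1.53 and 1.24, Gadd45b, a survival gene, at 2.21 and 2.59, and the phosphatase Ptpn6 at 1.34 and 1.0. The MAP kinase phosphatases Dusp4, Dusp5 and Dusp6 lay between 0.28 and 0.58, and Socs2 at -0.02 and -0.05. Ier3 was at 5.04 (17 times above) and -1.15 (4 times below), so the arrays differed in sign.

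The interferon genes lay above 1 on both arrays more often than named genes as a whole (5.61%). The upward side was set by the direction chosen and is no result. Of 32 measured genes, 13 were above 1 on both arrays (40.6%), 25 above 0 on both and 3 below 0 on both, with medians of 0.95 and 1.38. Irf7, the factor that amplifies type I interferon, was at 1.87 and 3.22. Oas1a, which makes the activator of RNase L, was at 2.10 and 2.26, and Usp18, which removes ISG15 and restrains the receptor, at 2.14 and 1.99. Rsad2, the antiviral enzyme viperin, was at 1.38 and 3.73, the mean of features that read 4.73 and 2.72 on PEC2. Ifit1 was at 1.57 and 2.48 but Ifit2 at -0.69 and 0.27. Of the GTPases, Gbp2 was at 1.80 and 1.70, Igtp at 1.81 and 1.44, and Iigp1 at -0.58 and -0.75. Irgm2 sat at the commonest ratio of both arrays. Among 13 IRF, STAT and JAK genes, Irf1 (1.03 and 1.97) and Stat5a (6.12, 36 times, and 1.66) were above 1 on both arrays. Irf8 was at 0.74 and 1.39, Stat3 at 0.83 and 2.04, and Irf3, which is activated by phosphorylation, at 0.37 and 0.33. Stat4, which transmits interleukin-12 signals, was below -1 on both (-1.42 and -1.05).

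Effector enzymes of the activated macrophage followed. Of 26 measured, 10 were above 1 on both arrays (38.5%, against 5.61% of all named genes), with medians of 1.06 and 0.79. Nos2, which makes nitric oxide, was at 3.37 and 3.77. Gch1, which makes the tetrahydrobiopterin that Nos2 needs, was at 2.32 and 1.74. Cyba and Rac2, parts of the NADPH oxidase, were at 2.24 and 1.49 and at 1.76 and 2.10. Ch25h, which makes the antiviral lipid 25-hydroxycholesterol, was at 1.74 and 1.5. Plaur, the urokinase receptor, was at 2.30 and 1.90, Mmp14, a membrane metalloproteinase, at 2.07 and 2.69, and F3, tissue factor, at 2.05 and 1.0. Odc1, the first enzyme of polyamine synthesis, was at 1.29 and 1.03. Sod2, the mitochondrial superoxide dismutase, averaged 1.5 and 1.28, from a feature at 2.31 and 2.22 and a feature at 0.69 and 0.35. Arg2 was at 1.56 and -0.41, Mmp9 at -0.67 and 0.76, and Hmox1, haem oxygenase, at 0.64 and -0.51.

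On the cell surface, Cd40, which receives help from T cells, was at 2.12 and 3.44, and Icam1, a ligand for leukocyte integrins, at 1.12 and 2.98. Cd86 was at 1.16 and 1.30, while Cd80, its partner in costimulation, was at -0.67 and 0.22. Of 17 genes listed for costimulation and surface activation, 6 were above 1 on both arrays (35.3%, against 5.61% of all named genes). Marcksl1, a relative of the protein kinase C substrate Marcks, was the highest of the list at 3.31 and 3.80, although it is not a cell surface protein. Sdc4, a heparan sulphate proteoglycan, was at 2.99 and 4.27.

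Antigen presentation was high in the class I pathway. Of 11 measured class I and processing genes, 6 were above 1 on both arrays (54.5%, against 5.61% of all named genes). The medians were 1.45 and 1.28. B2m, the invariant chain of class I, was at 2.30 and 1.62, the peptide transporter Tap1 at 1.65 and 1.44, and the immunoproteasome subunits Psmb8 and Psmb10 at 2.10 and 1.42 and at 1.45 and 1.89. Of 10 class II genes, 4 were above 1 on both: H2-Aa (1.72 and 1.18), H2-Eb1 (1.61 and 1.63), the protease Ctss (1.84 and 1.22) and H2-DMa, a whole multiple. Cd74, the invariant chain, was at the commonest ratio on PEC1 and 35 times it on PEC2 (5.98). Without these last 2 genes, the class II median on PEC2 was 0.41 in place of 0.81.

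Acute-phase and antimicrobial genes were high, with medians of 1.61 and 0.96. Of 21 measured, 9 were above 1 on both arrays (42.9%, against 5.61% of all named genes). Saa3, the serum amyloid of macrophages, was at 3.26 and 2.44. Lcn2, which binds bacterial siderophores, was at 2.68 and 3.98, and Slpi, a protease inhibitor, at 2.86 and 2.06. The complement chains C1qa, C1qb and C1qc were at 2.0 and 1.36, 2.13 and 1.38, and 1.80 and 1.21. Of the alarmins, S100a8 was at 2.87 and 0.96 and S100a9 at 1.22 and 1.51. The divalent metal transporter Slc11a1 (Nramp1), which withholds metal from microbes, was at -5.70 and 1.85, both whole multiples (101 below and 2 above).

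Metal and redox genes were led by the metallothioneins, Mt1 at 3.28 and 3.59 and Mt2 at 3.66 and 3.51. Txnrd1 and Txn1, of the thioredoxin system, were at 1.95 and 1.91 and at 2.77 and 1.69. Sod1, the cytosolic superoxide dismutase, was at -0.74 and -0.32, and Tfrc, the transferrin receptor, at -0.14 and -0.33. Of the 32 genes, 9 were above 1 on both arrays (28.1%, against 5.61% of all named genes). Alas2, the first enzyme of haem synthesis in red cells, was at 2.78 and 2.96. It was the 1 gene above 1 on both arrays of 11 erythroid and platelet genes, of which 6 were above 0 on both and 3 below. Car2, a carbonic anhydrase, was at 1.73 and 0.67, Klf1 at 0.84 and 0.05, Slc4a1, the red cell anion exchanger, at 0.63 and 0.02, and Gata1 at -0.95 and -0.51.

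Markers of alternative activation were mixed. Of 19 measured, 2 were above 1 on both arrays (10.5%, against 5.61% of all named genes), and the medians were 0.64 and 0.03. Retnla, a marker of interleukin-4-treated macrophages, was at 2.34 and 1.19, Mrc1, the mannose receptor, at 0.45 and 0.33, and Chil3 at 1.10 and -0.97.

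Some lists of general cell functions also had medians above 0 on both arrays. Of 26 cytosolic ribosomal proteins, 21 were above 1 on both arrays (80.8%), with medians of 2.26 and 1.36. Rplp1 was at 2.77 and 1.49 and Rps14 at 2.37 and 1.56, but Rpl13 at -0.36 and -0.23 and Rps13 at 0.13 and 0.16. For comparison with the next counts, 5.61% of all named genes were above 1 on both arrays. Lysosomal genes had medians of 0.95 and 0.85 (9 of 35 above 1 on both) and those of oxidative phosphorylation 0.83 and 0.69 (7 of 46). Proteasome genes had 1.33 and 0.20 (7 of 27), and actin and adhesion genes 1.12 and 0.70 (11 of 41), with Actb itself, beta-actin, at 1.68 and 1.16. Of 36 lists of genes, 29 had a median above 0 on both arrays. On TAM-trial, the ribosomal median was -2.04, and on TAM-16 0.14. Levels were not used here, and whether this shift follows the abundance of a transcript was not tested.

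**Figure D4:**
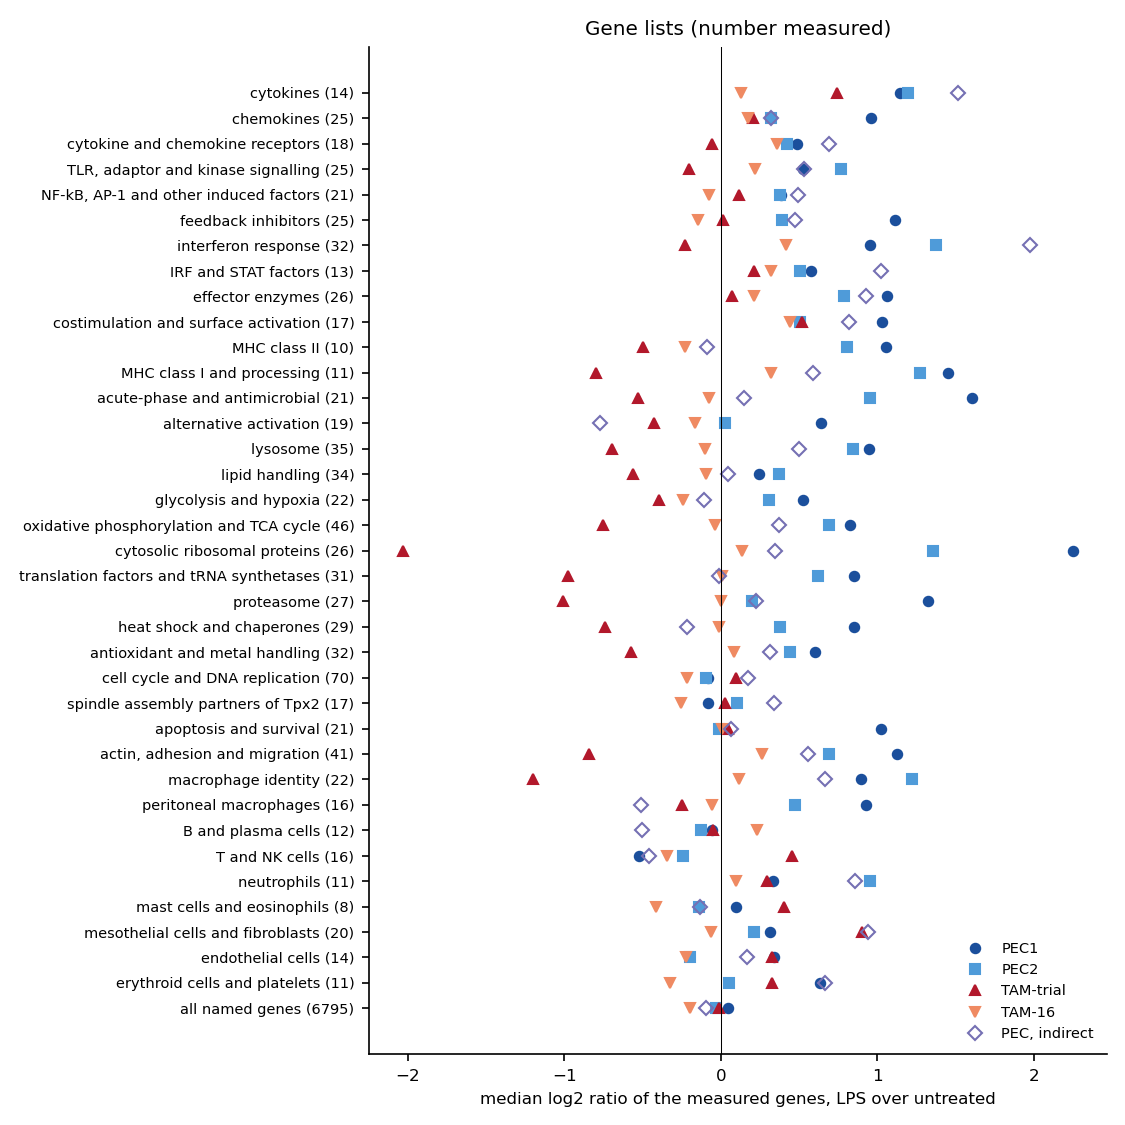
Median log2 ratio of LPS over untreated cells for 36 gene lists and for all 6795 named genes, on PEC1 and PEC2 (blue), on TAM-trial and TAM-16 (red) and for the PEC response inferred from the 8 other arrays (open diamonds). Ribosomal proteins are highest on PEC1 (2.26), beside interferon genes on PEC2 (1.36 and 1.38), and lowest on TAM-trial (-2.04), while cytokines and interferon genes are highest by the inferred response (1.52 and 1.98).

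The labelled cell type could not be checked by level, since the arrays give only ratios. Macrophage genes lay mostly above 0, with medians of 0.89 and 1.23 over 22 genes. Of these, 9 were above 1 on both arrays, where 5.61% of all named genes were. Cd68 was at 1.88 and 1.42 and Fcer1g, the signalling chain of Fc receptors, at 2.56 and 1.96, while Adgre1, the F4/80 antigen, was at 0.53 and -0.70. T and NK cell genes lay slightly below 0 (medians -0.52 and -0.24; 16 measured). Their 1 gene above 0 on both arrays was Cd3d, at whole multiples. Its partners Cd3e (0.27 and -0.15) and Cd3g (-0.62 and -1.33) were not high. The 12 B and plasma cell genes lay on both sides of 0, with medians of -0.06 and -0.13. The 1 above 1 on both was Cd79a at 2.29 and 5.37 (23 times on PEC2), and its partner Cd79b was at -0.15 and -0.11. Of 11 neutrophil genes, 3 were above 1 on both: Lcn2, S100a9 and Padi4. In that list 6 genes were above 0 on both arrays and 3 below, the granule genes Ngp (-0.53 and -0.63), Ltf (-0.59 and -0.72) and Mpo (-2.28 and -0.56). Prtn3, another granule gene, was at 0.33 and 1.19. Their part in the results was not tested.

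Few genes were below -1 on both arrays (33, 0.486%), and the 5 lowest were whole multiples. Plekhm3 was at -4.63 and -4.54 (48 and 42 times below), and Lix1l at -4.50 and -5.20 (44 and 66 times). Mthfd2, a mitochondrial folate enzyme, was at -4.13 and -4.47 (34 and 40 times), Wipf1 at -3.13 and -5.28 (17 and 70 times) and Lingo1 at -5.00 and -3.06 (62 and 15 times). Of the 15 lowest, 9 were at whole multiples on either array. The next, Ppm1b, a phosphatase that acts on the kinases TAK1 and IKK, was at -2.14 and -3.30 (mean -2.72 ± 0.82, SD, n = 2; limma adjusted p = 0.302). Ambn (-8.77 and -1.75), Plppr2 (-1.36 and -6.52) and Cobl (-5.13 and -1.20) rested on 1 extreme value, that of Cobl on 1 of its 2 features (-10.03, the other -0.24). Chgb was at -1.38 and -1.43 and Ppfibp2 at -1.60 and -1.23. Of 33 genes below -1 on both arrays, 13 were at whole multiples.

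The PEC response can also be reached without PEC1 and PEC2. Untreated TAM against PEC, plus TAM with LPS against TAM, minus TAM with LPS against PEC with LPS, leaves PEC with LPS against PEC. This sum, like the loop fit below, takes the PEC of all arrays to be alike, though the labels of PEC1 and PEC2 name no tumour. Whether they are alike was not tested. The sum uses the 8 other arrays and none of the 2 direct ones. Place within 96 features accounted for 4.39% (TAM1) to 49.1% (TAM-b) of the variance on these 8. It was 33.4% on TAM-trial, and 10.3% and 16.6% on PEC1 and PEC2. Across named genes the direct and indirect values correlated at r = 0.344 and rho = 0.343. Of the 381 genes above 1 on both direct arrays, 311 (81.6%) were above 0 indirectly, against 46.6% of all named genes. The share was 278 of 340 (81.8%) for genes at no whole multiple, against 45.8% of all named genes at none. For genes at a whole multiple on either array it was 33 of 41 (80.5%), against 63.1% of all such genes. Of the 33 genes below -1 on both, 22 (66.7%) were below 0 indirectly, against 53.4% of all named genes. At no whole multiple they were 17 of 20 (85.0%), against 54.2% of all such genes. At a whole multiple on either array they were 5 of 13 (38.5%), against 36.9%. The agreement of the higher genes depends on how TAM-2R and TAM1, whose channels were exchanged, are turned. As they were turned here, to the order of the other arrays, the share was 81.6%. Unturned, it was 146 of 381 (38.3%), against 41.6% of all named genes. For the lower genes the count was 22 of 33 either way.

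The indirect value was highest for interferon genes and cytokines. The medians were 1.98 for interferon genes, with 27 of 32 above 0, and 1.52 for cytokines, with 11 of 14. They were 1.03 for IRF and STAT genes and 0.93 for effector enzymes, against -0.09 for all named genes. Cxcl10 was at 7.48 ± 1.06 and Ccl5 at 7.38 ± 1.0 (SE of the fit), above their direct means of 4.00 and 4.35. Irf7 was at 4.61 ± 0.87 and Usp18 at 4.00 ± 0.96, against 2.55 and 2.07. Il1b was at 5.64 ± 1.82, Tnf at 3.66 ± 1.08 and Nos2 at 4.28 ± 1.42, within 1 SE of the direct means. Saa3 had the opposite sign, at -1.28 ± 1.07 against 2.85. So had Slpi, at -0.45 against 2.46, and H2-DMa (7 and 14 times), at -2.855 against 4.208. Lcn2 kept its sign, at 2.73 against 3.33. Ribosomal proteins, so high directly, had an indirect median of 0.35, with 16 of 26 above 0. The alternative activation list was at -0.77, with Retnla at -1.94 and Mrc1 at -2.02. Tpx2 was at 0.95 ± 0.77 against 5.74, a difference of 4.79 ± 0.91. The test of direct minus indirect called 0 of 8905 by limma after Benjamini-Hochberg adjustment, Tpx2 included, and 238 (2.67%) had an unadjusted p under 0.05.

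A loop fit, which joins the direct and the indirect routes into 1 estimate of the PEC response, called 28 genes or features higher (0.314%) and 0 lower by limma with Benjamini-Hochberg adjustment. All 28 were above 1 on both direct arrays, and 24 were named genes, listed after their values were seen. By role they were the chemokines Ccl5, Cxcl10 and Ccl3, the cytokine Tnf, and the interferon genes Irf7, Oas1a, Daxx and Lgals9. Trex1, a nuclease that removes cytosolic DNA, and the schlafen gene Slfn1 were called as well, Slfn1 with 18 times the commonest ratio on PEC1. So were Marcksl1, the surface genes Cd40, Sdc4 and Plaur, the proteases and inhibitors Mmp14 and Timp1, and the vasoconstrictor Edn1. The others were the kinase Pim1, Cdkn1a, Anxa5, Alas2, the transcription factor Tbx6 (7 times the commonest ratio on PEC2), and the whole multiples Tpx2 and Padi4. In this fit Ccl5 was at 5.22 ± 0.65, Cxcl10 at 4.99 ± 0.72, Cd40 at 2.77 ± 0.38 and Oas1a at 2.35 ± 0.34 (SE of the fit; adjusted p = 0.0215 each). Il1b (5.14, adjusted p = 0.0507), Ccl4 (5.17, 0.055), Gch1 (1.96, 0.0501) and Nos2 (3.78, 0.0741) missed the threshold. The count was 0 without PEC1, PEC2, TAM7 or TAM-16, 1 without TAM1 and 5 without TAM-trial. It was also 0 with the 2 exchanged arrays unturned or with a dye term, and 89 with each array brought to 1 scale. Without TAM-8 it was 12 and without TAM-b 13, all among the 28. With the median of each place within 96 features removed it was 23, and 17 of these were among the 28.

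**Figure D5:**
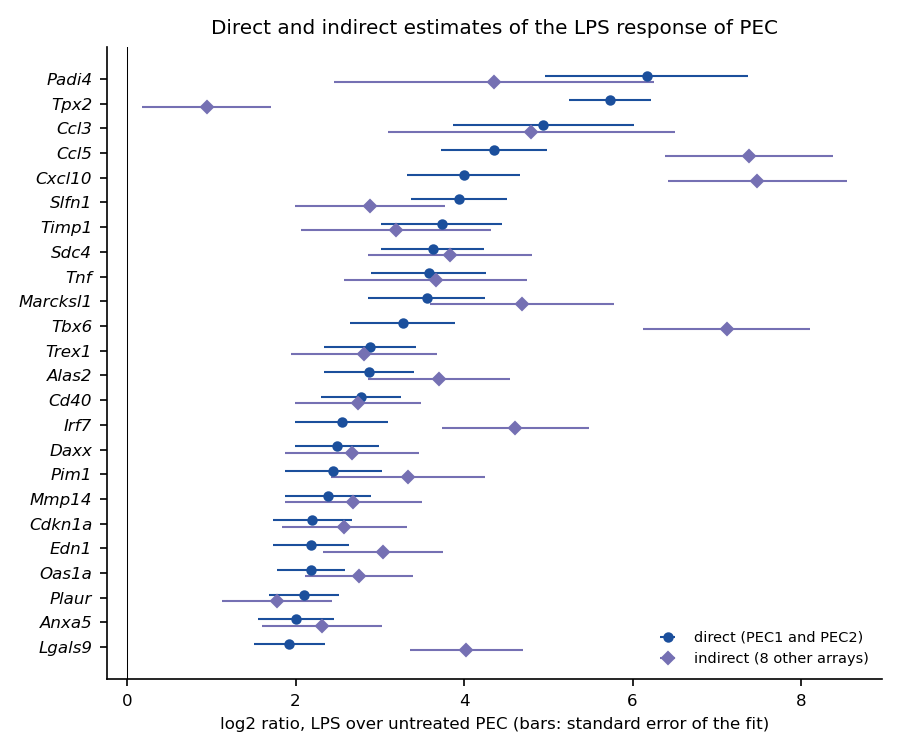
Log2 ratio of LPS over untreated PEC for the 24 named genes called by the loop fit, as the direct mean of PEC1 and PEC2 (circles) and as inferred from the 8 other arrays (diamonds), with the standard error of the fit. The inferred value is higher than the direct one for Cxcl10 (7.48 against 4.00) and Ccl5 (7.38 against 4.35) and far lower for Tpx2 (0.95 against 5.74).

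Some genes high in PEC were also high in TAM given the same dose for the same time. Across all named genes, PEC1 and PEC2 correlated with TAM-16 at r = 0.177 and 0.183. With TAM-trial they correlated at r = -0.0742 and 0.00548. On TAM-trial and TAM-16, 75 named genes were above 1 on both (1.1%), and 22 of these were among the 381 of PEC: 5.77% of the PEC genes and 29.3% of the TAM genes. Of the 381, 79 were below 0 on both TAM arrays. The share of all named genes below 0 on both is not given here, so this count is not read as an opposite response. Of the 30 highest PEC genes at no whole multiple, 10 were above 1 on all 4 arrays: Ccl5, Ccl4, Nos2, Marcksl1, Sdc4, Cxcl10, Alas2, Nfkbib, Tnf and Cd40. Ccl5 was at 3.88 on TAM-trial and 5.18 on TAM-16, Cxcl10 at 2.05 and 4.00, and Alas2 at 3.04 and 2.47. Il1b was at -0.23 and 2.91 and Timp1 at -0.46 and 0.70. Mt1 was at -0.89 and 0.88, Lcn2 at 0.30 and 1.15 and Nfkbia at 0.01 and 1.62. Among the interferon genes, Oas1a was at 0.11 and 0.24 and Irf7 at 1.48 and 0.30. The test of TAM minus PEC called 0 of 8905 by limma with Benjamini-Hochberg adjustment, with 612 (6.87%) at an unadjusted p under 0.05, so no gene was shown to respond differently in the 2 kinds of cell. With PEC1 left out 47 were called, and with PEC2 left out 19. The lone PEC array is then assumed to vary like the other groups.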

How the data were processed

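The files used here hold the authors' deposited values, a log ratio for each feature on each array. The labels give each channel's contents, but neither dyes nor log base, and how the authors scanned and normalized the arrays is not stated in them. The deposited values were taken as log2, which their size and their whole multiples bear out, and used without further normalization. The number of arrays limits the precision. The 2 arrays with exchanged channels were turned. Features of 1 gene symbol were averaged, 483 features with several symbols and 1627 with none were kept unnamed, and 7395 features were matched by Entrez identifier. limma 3.58.1 in R 4.3.3 fitted 4 group means over 10 arrays, with 6 residual degrees of freedom, and scripts were tested on simulated data. A ratio was called a whole multiple up to 128 times the commonest ratio, within the rounding of 0.001. The rule allowed naming genes past the threshold, the 15 highest and 15 lowest, and the first 5 measured of each list. It also allowed any cytokine, chemokine, feedback inhibitor, effector enzyme, IRF or STAT gene. Not every gene it allowed is named, and the choice among them was not fixed by the rule. Any other gene in the text was chosen after its values were seen. The members and lists were chosen with earlier results of these data known. The alternatives tried concern spread, model, dye, scale, centre, position, averaging, orientation, threshold and single arrays.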

Additional observations from a re-analysis of the deposited data

How the results depend on the processing

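With only the 2 PEC arrays in the fit, limma called 0 genes in place of 1. It called 28 in the loop fit, 0 in the loop fit with a dye term, 3 with arrays brought to 1 scale and 5 with the median of each place within 96 features removed. It called 2 with the exchanged arrays unturned and 0 with whole multiples left out, an alternative chosen after seeing the data. Leaving out single arrays gave 1 to 85, with 85 without PEC1, 48 without PEC2 and 2 without TAM-b or TAM-2R. Where 1 PEC array is left, it is assumed to vary like the other groups. The TAM minus PEC count of 0 became 1 with whole multiples left out, and 0 to 47 without single arrays (47 without PEC1, 19 without PEC2, 1 without TAM-16). The loop fit's 28 became 89 with 1 scale, all 28 among them, 13 with block medians removed, and 0 with the exchanged arrays unturned (495 at an unadjusted p under 0.05 by limma) or with a dye term (588). Without single arrays it ranged from 0 to 36. The count above 1 on both arrays, 381, became 594 with 1 scale, 881 at a 1.5-fold threshold and 57 at 4-fold. The count below -1, 33, became 60 with 1 scale, 20 with whole multiples left out, 267 at 1.5-fold and 6 at 4-fold. Without PEC1 or PEC2 these counts have no value. The B and plasma cell median of 0.001 became -0.131 with features singly, -0.127 with whole multiples left out, and -0.126 to -0.058 without single arrays. The erythroid median of 0.33 became -0.0855 with place medians removed and -0.174 with whole multiples left out. Of the genes named, 30 changed the sign of their mean under at least 1 alternative, none of them called. The 12 that had 1 sign on both PEC arrays are given here. With place medians removed Cd79b was at 0.0535, Mrc1 at -0.0575, Myc at 0.052, Slc4a1 at -0.0855 and Socs2 at 0.092. With block medians removed Cd79b was at 0.1475, Cx3cr1 at 0.123 and Tfrc at 0.015. In the loop fit Cx3cr1 was at 0.0992, Dusp4 at -0.0739 and Mrc1 at -0.2989. With a dye term as well, Car2 was at -0.2948, Prtn3 at -0.3114, Cd79b at 0.4934, Cx3cr1 at 0.5588, Dusp4 at -0.2069, Mrc1 at -0.6586, Ppfibp2 at 0.2262, Rpl13 at 0.5261, Slc4a1 at -0.3699 and Tfrc at 0.6697. The cause was not tested. No paired analysis was possible because the PEC response comes from ratios within arrays, and no labels tie an array of one comparison to one of another.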
